A study of Drosophila melanogaster with 3 samples.

Results

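The pooled dm6 list of this chromatin immunoprecipitation study held 30000 regions, of which the first 5208 by signal were the authors' optimal peaks. The list is labelled as peaks and background, so a region in it need not be a peak. Past rank 5208 lay 24792 weaker regions, and 23586 of them touched no optimal peak by even 1 bp. Of these, 3225 had a summit within 100 bp of the pooled summit in each of the 3 replicate lists. These 3225 regions (13.7% of the 23586, and 10.8% of the pooled list) are described here as the recurrent weak regions. They were chosen by measured values, namely the pooled signal and the positions of the replicate summits, so their signals and ranks are a description and carry no test. The other 20361 weaker regions, which lacked a nearby summit in at least 1 replicate, are called the other weaker regions.

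The libraries came from Drosophila melanogaster embryos (whole, both sexes, 0 to 24 h old) of 1 transgenic line without any treatment, and were precipitated with an antibody to GFP after sonication to 200 to 800 bp. Biological replicates 1, 2 and 4 form 1 group, and no untagged, treated or mutant group was used here. The labels disagree on the tagged protein: strain, source and antibody fields name CG18619 (REPTOR-BP), while the sample description and a note give REPTOR with GFP at its C-terminus, so no choice between them is made. A whole embryo mixes all cell types and ages of that window, so a weak region cannot be told apart from a strong region present in few cells.

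Both candidates belong to the bZIP class, transcription factors that pair through a leucine zipper and bind DNA through a basic stretch beside it, and they can pair with each other. When the growth kinase complex TORC1 is active, REPTOR is phosphorylated and kept in the cytoplasm. When TORC1 is inhibited, REPTOR enters the nucleus and with REPTOR-BP activates genes of the starvation response. Peak callers commonly list weak regions together with strong ones, and the irreproducible discovery rate keeps those whose ranks agree between replicates.

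Windows reaching 50 bp to each side of the summit show what these regions look like, for the strongest regions of each main location class. One chromosome arm and windows with untranslated sequence were passed over. Each is the plus strand of the dm6 (Release 6) RefSeq assembly, and capitals mark any of 16 searched motifs or the heptamer described below, on either strand. The first pair lay in promoters. That of Antp, a Hox gene, was 412 bp upstream of a start site but inside the gene. That of mRpL4, a protein of the mitochondrial ribosome, was 97 bp upstream of the start site and outside the gene. The second pair lay in introns of CG9328 and of ct, which encodes a homeodomain factor. The last pair lay between genes, nearest to Prat2, an enzyme of purine synthesis, and to PsGEF, a nucleotide exchange factor.
Antp, chr3R:6933202-6933302: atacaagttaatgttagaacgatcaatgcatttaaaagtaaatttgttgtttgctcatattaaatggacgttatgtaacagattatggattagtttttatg
mRpL4, chr2L:16329179-16329279: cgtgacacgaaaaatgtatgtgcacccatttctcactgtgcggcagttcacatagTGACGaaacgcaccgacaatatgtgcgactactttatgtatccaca
CG9328, chr2L:20811340-20811440: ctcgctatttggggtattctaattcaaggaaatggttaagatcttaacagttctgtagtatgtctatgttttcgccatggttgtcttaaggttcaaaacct
ct, chrX:7617024-7617124: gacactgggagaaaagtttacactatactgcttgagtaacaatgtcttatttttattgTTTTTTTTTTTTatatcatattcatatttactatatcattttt
Prat2, chr3L:6861360-6861460: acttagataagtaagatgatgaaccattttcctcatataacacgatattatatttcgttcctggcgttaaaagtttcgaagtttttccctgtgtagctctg
PsGEF, chrX:2396663-2396763: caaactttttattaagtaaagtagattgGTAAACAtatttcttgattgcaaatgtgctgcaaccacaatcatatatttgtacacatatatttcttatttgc
The windows of Antp, CG9328 and Prat2 held none of the 16 motifs. The window of mRpL4 held TGACG, the core of the cAMP response element known for bZIP factors, that of ct a run of T, and that of PsGEF the FOXO site read on the other strand. In these windows G and C made up 25.7% (Antp), 45.5% (mRpL4), 36.6% (CG9328), 22.8% (ct), 34.7% (Prat2) and 26.7% (PsGEF). Of the 6, the windows of ct, Antp and PsGEF were the poorest in G and C.

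The recurrent weak regions reached down from the edge of the optimal list. Signal here is the value the authors' caller gave each region, on the scale of its own list. The last optimal peak had a pooled signal of 148.2, and the first recurrent weak region, at rank 5210, had the same value. The median rank was 8442, the quartiles of the signal were 82.3 and 122.8, and the last one stood at rank 28712 with a signal of 40.3. The deposited −log10 q of the recurrent weak regions ran from 0.088 to 2.91, with a median of 1.51. The lowest value of an optimal peak was 2.9. Recurrence was common just below the optimal peaks and rare further down: 49.7% of the regions at ranks 5209 to 10208 were found in every replicate, then 17.2%, 3.34%, 0.454% and 0.0424% in the next bands of 5000 ranks. Over all 23586 weaker regions, 7900 were found in 2 replicates, 9773 in 1 and 2688 in none. The summit in the replicate lay a median of 23, 20 and 21 bp away in replicates 1, 2 and 4, and 1561 regions (48.4%) had all 3 summits within 50 bp. At the limit of 100 bp, 289 regions had their farthest summit 91 to 100 bp away, with a median signal of 92.1 and 20.1% in promoters. The 277 regions up to 10 bp outside it had 91.6 and 20.2%.

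The strongest recurrent weak regions lay at genes of many kinds. Of the 20 with the highest pooled signal (147.5 to 148.2), 8 were in promoters, 6 between genes, 4 in introns and 2 in 5' untranslated regions. Autophagy is represented by Atg1, the kinase that starts it, with an intronic region 2380 bp inside the gene (3L, 12802508 to 12802963). That region ranked 5527, 5273 and 7179 in replicates 1, 2 and 4, so its ranks lay close together. The region shared by the promoters of sra, a regulator of calcineurin, and Bin1 (3R, 16186753 to 16187208) ranked 7585, 2271 and 17151, and was strong in replicate 2 alone. The promoter region of CG31869 (2L, 10800793 to 10801248) ranked 5401, 29093 and 3558, close to the end of the list in replicate 2. The promoter region of mRpL4 (2L, 16329001 to 16329456) ranked 4531, 16620 and 3643, again lowest in replicate 2. The promoter region of Antp (3R, 6933024 to 6933479) ranked 6319, 9609 and 5151.
The others at promoters were those of Rph, which encodes rabphilin of synaptic vesicles, RhoGAP19D, CG13082, and Slik, a kinase, whose region also lay at the start of the proteasome gene Rpn8. Introns of CHES-1-like, a forkhead factor, ct and CG9328 held further ones, and 5' untranslated regions of frc, a nucleotide sugar transporter, and CG6330 held 2. Those between genes were nearest to Ir48b, an ionotropic receptor, Prat2, CG8635, PsGEF, Prx3, a mitochondrial peroxiredoxin, and CG14985, at 2908 to 52554 bp from the start site.

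The regions whose weakest rank over the 3 replicates was best were led by a region between genes nearest to CG34460 (2R, 16832710 to 16833165), which ranked 4886, 4150 and 5499 in replicates 1, 2 and 4. Next came the promoter of eIF2D, a translation initiation factor (3R, 29151638 to 29152093), at 5504, 5679 and 5463. The promoter of orion (X, 7944778 to 7945233) ranked 5641, 5101 and 5960. Of these 3, CG34460 ranked inside the strongest 5208 in replicates 1 and 2, orion in replicate 2 and eIF2D in none. The other 7 were at the promoters of dco, the casein kinase of the circadian clock, CG7255 and His3.3B, which encodes a replacement histone, and in introns of dally, a heparan sulfate proteoglycan, pum, a translational repressor, bru2, and HmgD, an HMG-box protein. Their weakest ranks lay between 5975 and 6126.

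Across all recurrent weak regions, ranks in the replicates were spread widely. The median rank was 10319 in replicate 1 (lowest 2824, highest 29953), 12579 in replicate 2 (2005 and 29947) and 10187 in replicate 4 (2294 and 29972). Among the strongest 5208 regions of a replicate were 255 (7.91%), 241 (7.47%) and 277 (8.59%) of them in replicates 1, 2 and 4. None was in that set in all 3 replicates, 70 were in 2, 633 in 1 and 2522 (78.2%) in none. The rule left out the strongest 5208 pooled regions, which come from the same replicates, so these low counts are in part built in. Within the strongest 10000 regions of every replicate stood 403 (12.5%). The weakest of the 3 ranks was in replicate 2 for 1447 regions (44.9%), in replicate 1 for 886 and in replicate 4 for 893. The weakest rank was a median of 2.21 times the strongest, and more than 3 times the strongest in 790 regions (24.5%). Spearman's rho of the replicate signals over the 3225 regions was 0.307 for replicates 1 and 4, 0.201 for 1 and 2 and 0.127 for 2 and 4. These values are a description. The regions share an origin in the pooled list, and the rule bounds their pooled signal, which can lower rho and widen the spread of ranks. Agreement between the whole replicate lists was not measured here.

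**Figure D1:**
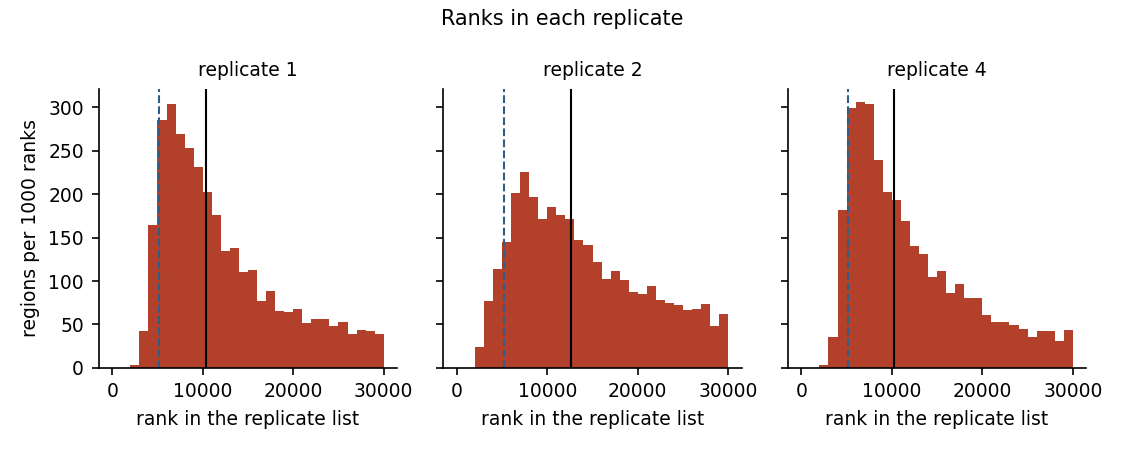
Ranks of the 3225 recurrent weak regions in the list of each replicate (x axis, rank by signal; y axis, regions per 1000 ranks). Solid lines mark the medians of 10319, 12579 and 10187 and dashed lines rank 5208; the ranks of replicate 2 spread furthest to the right.

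Introns held the largest share of the recurrent weak regions. Of 3225 summits, 1528 lay in introns (47.4%, 95% Wilson interval 45.7 to 49.1), 835 between genes (25.9%, 24.4 to 27.4) and 749 in promoters, here the 500 bp on either side of any start site of protein-coding genes (23.2%, 21.8 to 24.7). Optimal peaks had 37.7% in introns, 14.9% between genes and 45.8% in promoters. By bases of the 6 arms, promoters make up 11.5%, introns 39.3% and intergenic sequence 30%. The promoter share of the recurrent weak regions thus lay between that of the genome and that of the optimal peaks. Coding exons held 46 summits (1.43%, 1.07 to 1.9), against 13.9% of bases, 4.79% of the other weaker regions and 0.211% of optimal peaks. There were 27 summits in 5' untranslated regions outside promoters (0.837%) and 40 in 3' untranslated regions (1.24%, against 4.52% of bases). Intervals cover the counting of regions only, and neighbouring regions are not independent.

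**Figure D2:**
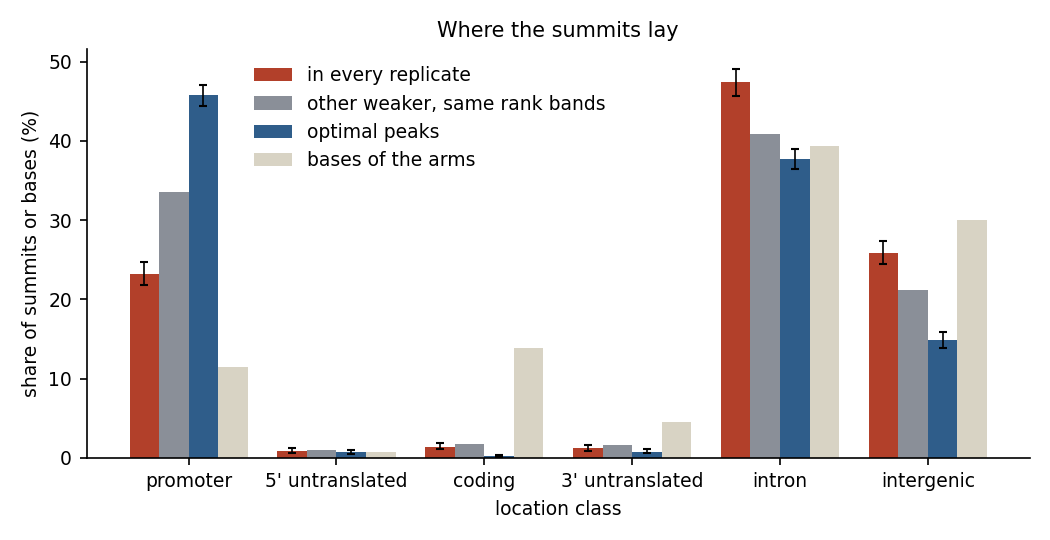
Share of summits, or of bases, in each location class (y axis, percent) for the 3225 recurrent weak regions, the other weaker regions weighted to the same bands of 5000 pooled ranks, the 5208 optimal peaks and the bases of the 6 arms. Bars carry 95% Wilson intervals where sets were counted directly; the recurrent weak regions have 23.2% in promoters, below the 33.6% of the other weaker regions at the same ranks.

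Whether recurrence went with a promoter depended on the ranks compared. Set against all other weaker regions, of which 19.8% lay in promoters, the recurrent ones had the higher share. The recurrent ones are also the stronger ones, and promoter shares fell with rank. Within the same band of 5000 pooled ranks, the share of the recurrent regions was the lower one. At ranks 5209 to 10208 it was 26.7% of 2226 (24.9 to 28.6), against 38.3% of 2251 other regions (36.3 to 40.3). At ranks 10209 to 15208 it was 16.2% of 814 (13.8 to 18.9) against 24.5% of 3909 (23.2 to 25.9). At ranks 15209 to 20208 it was 11.8% of 161 (7.69 to 17.7) against 17.2% of 4660 (16.1 to 18.3), and there the intervals overlapped. Introns and intergenic sequence had the higher shares: at ranks 5209 to 10208 they held 46.6% and 23.7% of the recurrent regions, against 38.6% and 19.4% of the others. The nearest start site there was a median of 2058.5 bp away from the recurrent regions and 1106 bp from the others, and in optimal peaks the median was 662.5 bp.

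**Figure D3:**
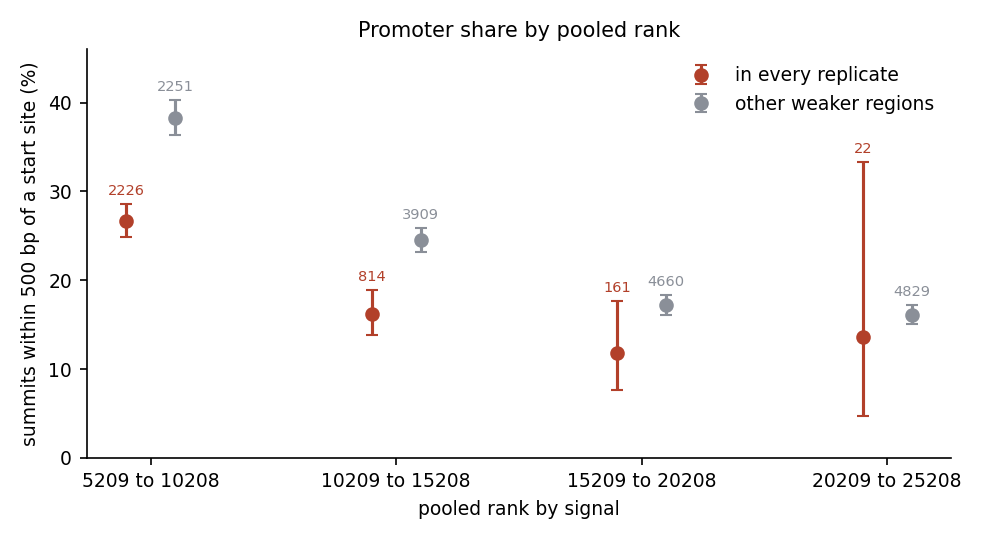
Share of summits within 500 bp of a start site (y axis, percent) by pooled rank (x axis), for recurrent weak regions and for the other weaker regions, with 95% Wilson intervals and the number of regions above each point. In the first band 26.7% of the recurrent regions and 38.3% of the others lay in promoters; the last band, with fewer than 5 recurrent regions, is left out.

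The replicates differed in which regions had a summit within 100 bp, which is what found in a replicate means here. A region whose replicate summit was shifted further counts as not found. Among regions at ranks 5209 to 10208, promoters made up 29.4% of the 780 found in replicates 1 and 4 only, close to the 26.7% of those found in all 3. The share was 45.9% for the 593 found in replicates 1 and 2 only, and 33.1% for the 423 found in 2 and 4 only. It was 54.8% for the 177 found in replicate 2 only, 47% for the 117 in replicate 1 only and 33.9% for the 121 in replicate 4 only. Of 40 regions found in none of them, 28 lay in promoters (70%, 54.6 to 81.9). Regions without a summit in replicate 4 thus had the higher promoter shares in this band. At ranks 10209 to 15208, 39.1% of the 489 regions found in replicate 2 only lay in promoters, against 20.1% of 389 in replicate 1 only and 16.4% of 396 in replicate 4 only.

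**Figure D4:**
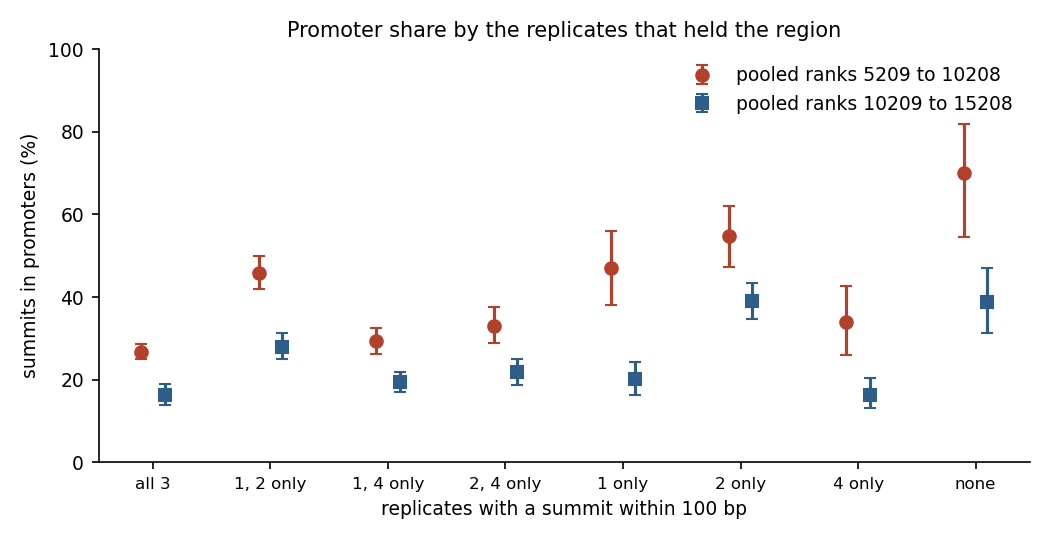
Promoter share of weaker regions (y axis, percent, with 95% Wilson intervals) by the replicates in which a summit lay within 100 bp (x axis), at pooled ranks 5209 to 10208 and 10209 to 15208. In both bands the share for replicate 2 only (54.8% and 39.1%) lies above that for replicate 4 only (33.9% and 16.4%).

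In the replicates' own lists the comparison came out differently from one replicate to the next. The regions matched to recurrent weak regions lay in promoters in 23.4%, 23.2% and 23.3% of cases in replicates 1, 2 and 4 (3224 regions in each, because 1 touched an optimal peak there). They are the same pooled regions seen in each list, with summits within 100 bp by the rule, so the agreement of these shares was built in. All other replicate regions that touched no optimal peak had 17.6%, 27.1% and 15%. The difference was therefore 5.81 percentage points in replicate 1, −3.9 in replicate 2 and 8.33 in replicate 4, a mean of 3.41 ± 6.46 (SD, n = 3). It was not larger than the spread between replicates (exact two-sided sign-flip permutation test, p = 0.5, where 3 values cannot give less than 0.25). That spread came from the other regions (SD 6.41 points, against 0.0781 for the matched ones). The 3 differences share the matched regions and are not independent, so the test cannot decide the question. With the other regions weighted to the same bands of replicate rank, a choice made after seeing the data, the differences were 0.0367, −10.4 and 2.84 points, a mean of −2.5 ± 6.96 (SD, n = 3, exact p = 1). The mean thus changed sign with the ranks compared, and replicate 2 stood apart in both.

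Most promoter regions lay upstream of the start site. Of the 749, 513 (68.5%) were upstream of the nearest start and 354 (47.3%) within 100 bp of it. At 160 of them (21.4%) the start sites of 2 or more genes lay within 500 bp, against 37.5% of optimal promoter peaks. Together they reached 870 of 13945 protein-coding genes, which is 6.24% of genes. An optimal promoter peak was also present at 110 of these 870 genes (12.6%), which are 3.83% of the 2870 genes with an optimal promoter peak. Of all genes, 20.6% had an optimal promoter peak. Regions that touch an optimal peak were left out by the rule, so a low overlap is in part built in.

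The gene lists used here and in the following paragraphs were chosen with earlier results of these data known. Their shares beside those of all genes are therefore a description. Among genes of protein synthesis, the share with a promoter region was 1.37% to 11.4% by list, with intervals that all overlapped. Of 88 cytosolic ribosomal protein genes 5 had one (5.68%, 95% Wilson interval 2.45 to 12.6), near the 6.24% of all genes, while 75 had an optimal promoter peak. RpL6, RpS3, RpS13 and RpS10a were among the 13 ribosomal protein genes without an optimal promoter peak, and RpL35 had both, so 79 of 88 had one or the other. Inside the gene 3 of the 88 held a recurrent region (3.41%, against 9.32% of all genes). At RpL6, of the large subunit (3R, 31596097 to 31596552, pooled signal 143.9), the signal was 54.9, 27.6 and 24.1 in replicates 1, 2 and 4. At RpS3, of the small subunit (3R, 23358594 to 23359049, 137.1), it was 19, 53.3 and 51.9, and at RpS13, in a region shared with CSN8, 16.5, 29.2 and 59.7. The lowest signal was in replicate 4 at RpL6 and in replicate 1 at RpS3 and RpS13. RpS13 ranked 27795 in replicate 1, near the end of that list.
Among mitochondrial ribosomal protein genes 1 of 73 had a promoter region (1.37%, 0.242 to 7.36), mRpL4, and 0 held one inside. Of 54 translation factor genes 3 had one (5.56%, 1.91 to 15.1), and 5 held one inside (9.26%). Those at promoters were eIF2D, with signals of 48.3, 49.6 and 53.7 in the 3 replicates, eIF3b, a subunit of a large initiation complex, with 50.4, 27.2 and 33.8, and eIF1A, which takes part in start codon scanning, with 43.1, 35.1 and 19.2. The region at eIF2D was even across replicates and that at eIF1A was not. Of 35 aminoacyl-tRNA synthetase genes, whose products charge tRNAs, 4 had one (11.4%, 4.54 to 26), all shared with a neighbour, and 1 held one inside (2.86%). The interval of this list, like those of the cytosolic ribosomal, mitochondrial ribosomal and translation factor lists, included the 6.24% of all genes. They were LeuRS-m (pooled signal 126.9, with Dhc64C), GlnRS (105.7, with RIOK2), TyrRS (94.9, with CG33158) and ProRS-m.

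The lists of nutrient signalling, autophagy and bZIP genes had promoter shares above the 6.24% of all genes, from 10.3% to 13%, with intervals that included 6.24%. Optimal promoter peaks were also more frequent in these lists, at 38.5%, 35.9% and 47.8% of genes, against 20.6% of all genes. Because the lists were chosen with earlier results known, these higher shares are a description only. Of 52 nutrient signalling genes 6 had a promoter region (11.5%, 5.4 to 23) and 10 held a region inside the gene (19.2%, against 9.32% of all genes). The strongest was at Max, the partner of Myc (3L, pooled signal 137.1, shared with Mettl5 and CG42374), with signals of 61.2, 20.1 and 63.5 in replicates 1, 2 and 4. At Nprl3, a subunit of the GATOR complex that restrains TORC1 (125.8, shared with upSET), they were 32.4, 19.5 and 48.6. Both were lowest in replicate 2. At InR, the insulin receptor (121.4), they were 33.2, 63.5 and 21.6, highest in replicate 2. InR and SNF4Agamma, a subunit of the energy-sensing kinase AMPK, also had an optimal promoter peak, whereas Max, Nprl3, Akt, a kinase of the insulin pathway, and Mondo, a sugar-responsive factor, did not. Inside genes, SNF4Agamma (73531 bp) held 6 and sgg, the fly GSK3 (45602 bp), held 4 of the 22 regions of this list. The whole list held 42.4 per Mb of gene against 22.7 for all genes. Single long genes thus weighed on these values, and the part of length was not tested.
Of 39 autophagy and lysosome genes 4 had a promoter region (10.3%, 4.06 to 23.6), none of which also had an optimal promoter peak, and 3 held one inside (7.69%, against 9.32%). The region at Atg8a, the ubiquitin-like protein of the autophagosome membrane (X, 10767180 to 10767635, pooled signal 144.7), had signals of 31.6, 49.8 and 67.7 in replicates 1, 2 and 4. At Atg5, part of the machinery that attaches it to the membrane (130.4, shared with Dok), they were 48.4, 24.4 and 44.5, and at Npc2a, a sterol-binding protein (124.3, shared with Got2), 28.5, 39.4 and 52.4. CtsB, a lysosomal protease, had the fourth.
Of 23 bZIP factor genes 3 had a promoter region (13%, 4.54 to 32.1) and 5 held one inside (21.7%, with 54.9 regions per Mb of gene). Those 5 were long genes: CrebB had 11508 bp, and cnc, Atf3, Pdp1 and vri had 22280 to 55912 bp. Of all genes longer than 20000 bp, 56.8% held a region inside, and the part of length in the share of this list was not tested. At cnc, the fly counterpart of the oxidative stress factor Nrf2 (pooled signal 147), signals were 29.6, 60 and 62.4, and at CrebB, the CREB factor (125.6), 19.7, 58 and 36.8. At kay, the fly Fos (66.4), they were 34.5, 22.9 and 17.7, so replicate 1 was the lowest of the 3 at the first pair and the highest at kay. Both cnc and kay also had an optimal promoter peak, and CrebB did not. REPTOR itself held no recurrent weak region, and 1 lay within 5 kb of it, among 13 weaker regions and 9 optimal peaks. Around REPTOR-BP the pooled list held no region within 5 kb.

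Promoter shares of stress and chromatin genes lay near the 6.24% of all genes, and that of cell cycle genes above it. Optimal promoter peaks were at 47.6% of stress, 42.2% of chromatin and 43.6% of cell cycle genes, against 20.6% of all genes. Among 42 stress and chaperone genes 3 had a promoter region (7.14%, 2.46 to 19) and 4 held one inside (9.52%, against 9.32% of all genes). Those at promoters were Nmdmc, a mitochondrial enzyme of folate metabolism (pooled signal 123.4), Hsc70-3, the chaperone BiP of the endoplasmic reticulum (104.9), and Keap1, the inhibitor of cnc (91.2). Hsc70-3 had signals of 28.5, 65.7 and 26.5, high in replicate 2 alone. Nmdmc and Keap1 also had an optimal promoter peak, and Hsc70-3 did not. Of 39 cell cycle genes 6 had one (15.4%, 7.25 to 29.7) and 6 held one inside (15.4%). The promoter regions were led by those of Cdk4 (142.2), fzy, the fly Cdc20 (122.6, shared with cni), and fzr, the fly Cdh1 (114.8). The signals of fzy were 22.8, 59.1 and 42, and those of Cdk4 were 47.4, 28.9 and 59.2. Cdk4 and fzr also had an optimal promoter peak, and the other cell cycle genes with a promoter region did not. Of 45 chromatin genes 3 had one (6.67%, 2.29 to 17.9), namely Pc and esc, both of the Polycomb group, and HmgD, and 5 held one inside (11.1%). At Pc (3L, 21317836 to 21318291, 127.2) the signals were 34.2, 37.4 and 43.1, and at esc (124) 58.4, 33.7 and 43.8, so neither was near the end of any list.

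Developmental genes held recurrent weak regions inside the gene more often than at the start. Of 56 patterning genes 4 had a promoter region (7.14%, 2.81 to 17, against 6.24% of all genes) and 18 held 1 or more inside (32.1%, against 9.32% of all genes). The promoters were those of Antp, vnd, a homeodomain factor of the nerve cord (pooled signal 120.3), rho, a protease that releases EGF receptor ligands (106.4), and Tl, the Toll receptor. None of these 4 had an optimal promoter peak. Of 36 neuronal genes 1 had a promoter region, mira, which carries fate determinants in dividing neuroblasts (114.9), and 12 held regions inside (33.3%), such as Nrg with 4 and sli with 3. Of 30 muscle genes 4 had a promoter region (13.3%, 5.31 to 29.7), led by Zasp52 of the Z-disc (145.3), Tm1, a tropomyosin (128.5), and Mef2, the muscle transcription factor (98.5), and 10 held regions inside. The median gene of these lists was longer than the 2166 bp of all genes, at 4932.5 bp (patterning), 14330 bp (neuronal) and 5274.5 bp (muscle), and the part of length in these shares was not tested. Per Mb of gene there were 35.2, 27 and 36.8 recurrent regions in the 3 lists, against 22.7 for all genes. Single genes weighed on these densities: kirre held 19 of the 34 regions of the muscle list, and pum 10 of the 38 of the patterning list. Among all genes the density was 11.7 for genes up to 5000 bp, 27.2 for those up to 20000 bp and 24.8 for longer ones. The 27 of the neuronal list was thus not above that of genes of middle length. Of 180 chemosensory receptor genes 2 had a promoter region (1.11%, 0.305 to 3.96, against 6.24% of all genes), Gr10a and Or10a, which share 1 region (pooled signal 80.2), and 1 held one inside (0.556%).

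Regions inside genes went with gene length. A gene counted as holding one when the summit lay within it, and overlapping genes each counted the same region. Of 13945 genes 1300 (9.32%) held at least 1, and their median length was 17228.5 bp. The share was 2.1% of genes up to 5000 bp, 20.5% of those up to 20000 bp and 56.8% of longer ones. Per Mb of gene the counts were 11.7, 27.2 and 24.8, so the longest genes held no more per length than those of middle size. Of the 1528 intron regions, 1068 (69.9%) lay in a gene that also held an optimal peak. At ranks 5209 to 10208 the share was 71.3% (68.4 to 73.9), against 71.9% (68.8 to 74.8) of the other weaker intron regions of those ranks, so the intervals overlapped.
The gene with the most was kirre, which acts in myoblast fusion (X, 2740384 to 3134532, plus strand), with 19 beside 15 optimal peaks. Next were bun, a growth-promoting gene of the TSC22 family, and fz2, a Wingless receptor, with 11 each beside 14 and 4 optimal peaks, and CG43658 and pum with 10 each beside 6 and 4. Per 10 kb, kirre held 0.482, pum 0.584 and CG43658 0.952, whereas fz2 held 1.17 and bun 1.21. The order by count was thus not the order by density.

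The strongest in coding sequence were in CG10962 within rdgA (pooled signal 143.1), in jing, a zinc finger factor (134.5), in nahoda (130.5), in su(w[a]), a regulator of splicing (126.4), and in kst, the heavy beta spectrin (122.7). Within 250 bp of a start site of a tRNA gene lay 1 region, of an snRNA gene 3, of a snoRNA gene 1 and of an rRNA gene 0. For tRNA genes this was 0.031% of the recurrent regions, against 0.162% of the other weaker regions and 0.096% of optimal peaks, and for snRNA genes 0.093%, against 0.0246% and 0.0576%. For snoRNA genes it was 0.031%, against 0.0737% and 0.115%. These shares rest on counts of 1 to 3 in the recurrent regions. The tRNA gene was tRNA:Gly-TCC-2-2 (signal 126.3), and the snRNA genes were snRNA:U4:39B (127.5), snRNA:U1:21D (106.9) and snRNA:U1:82Eb (79.7), which encode parts of the splicing machinery. At snRNA:U4:39B the signal was 39.2, 63.7 and 18.2 in replicates 1, 2 and 4, and at snoRNA:Psi18S-176 (144.1) it was 44.9, 70.2 and 23. Both were highest in replicate 2 and lowest in replicate 4.

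The recurrent weak regions were spread over the arms at 21.3 (2R) to 26.6 (3L) per Mb, with 25.9 on 2L, 22.4 on 3R and 25.5 on X. Chromosome 4, small and largely heterochromatic, held 9 (6.68 per Mb), as many as it held optimal peaks. The X chromosome held 600 (18.6%, 17.3 to 20), against 15.3% of the other weaker regions in the same rank bands and 17.6% of optimal peaks. The interval of the recurrent regions did not reach the share of the other weaker regions on X, and it included that of the optimal peaks. The nearest optimal summit was a median of 6090 bp away, against 7844 bp for the other weaker regions, and regions that touch an optimal peak were left out of both by the rule. Within 1000 bp of one lay 266 (8.25%, against 6.39%), and 1184 (36.7%, against 43.2%) were beyond 10000 bp. At ranks 5209 to 10208 the order was the other way, with a median of 5729 bp for the recurrent regions and 5294 bp for the others.

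Summits of the recurrent weak regions were poorer in G and C than their surroundings, and less so than optimal peaks. G and C made up 38.6% of the summit windows (50 bp to each side) and 42.2% of windows of the same width centred 500 bp away on either side, a difference of −3.59 percentage points ± 0.23 (SE over 3225 regions). It was −4.64 ± 0.269 at ranks 5209 to 10208, −2.96 ± 0.277 in the other weaker regions of those ranks, and −8.78 ± 0.172 in optimal peaks. In the whole set of other weaker regions it was 0.501 ± 0.0886, that is, no drop. Outside promoters the recurrent regions had −3.87 ± 0.259 and in promoters −2.69 ± 0.496. These errors treat regions as independent and do not include the spread between replicates.

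Sites known for bZIP factors had shares at these summits near or below those of the flanks, or on counts too low to compare. The full cAMP response element TGACGTCA was in 8 windows (0.248%, 0.126 to 0.489), against 0.264% of flanking windows and 0.133% of all 1323188 windows of that width laid end to end along the arms. Its core TGACG, which the full element contains, was in 7.75% of summit windows (6.88 to 8.73), below the 8.87% of flanks (8.2 to 9.59) and the 9.04% of genome windows. The intervals of summits and flanks overlapped. At ranks 5209 to 10208 TGACG was in 7.37% of the recurrent regions and 7.69% of the other weaker regions, and it was in 6.72% of optimal peaks. The AP-1 site TGACTCA was in 0.93%, against 1.19% of flanks and 0.784% of genome windows, and the CARE site TGATGCAA in 0.341%, against 0.326% and 0.338%. The PAR site TTACGTAA was in 6 windows (0.186%, 0.0853 to 0.405), above the 0.062% of flanks and the 0.108% of genome windows, with an interval that included the latter. Optimal peaks held the full cAMP response element in 0.173%, the AP-1 site in 0.96%, the CARE site in 0.192% and the PAR site in 0.154%. Elements of housekeeping promoters were more frequent at summits than in flanks. The DRE TATCGATA was in 28 windows (0.868%, 0.601 to 1.25) against 0.171% of flanks and 0.275% of genome windows, and 26 of the 28 were in promoters. At ranks 5209 to 10208 it was in 1.21% of the recurrent regions and 1.33% of the other weaker regions, and it was in 1.5% of optimal peaks. The Motif 1 core GGTCACAC was in 31 windows (0.961%) against 0.14% and 0.21%, 27 of them in promoters. Within those ranks it was in 1.08% of the recurrent regions and 1.2% of the others, and it was in 1.09% of optimal peaks. The FOXO site TGTTTAC was in 132 (4.09%, 3.46 to 4.83) against 2.09% and 1.89%, at nearly the same share in promoters (4.01%) and outside (4.12%). Within those ranks it was in 4.54% of the recurrent regions and 4.53% of the others, and in optimal peaks in 4.3%, so these shares lay close together. The TATA box TATAAAAG was in 1.27% against 0.62% and 0.732%, and in 1.06% of optimal peaks. Within those ranks it was in 1.26% of the recurrent regions and 0.666% of the others. The E-box CACGTG was in 0.527% (0.329 to 0.843), against 1.21% of flanks, 1.17% of genome windows and 0.96% of optimal peaks. Within those ranks it was in 0.359% of the recurrent regions and 1.02% of the others. Motifs were read on both strands, and these shares are not corrected for base composition.

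A 7-base word stood first when words were ranked by their presence in summit against flank windows. Its ratio of summit to flank share, 4.39, was the highest of the leading words, whose order further down did not follow this ratio strictly. This heptamer, CAGTGTA, was read on both strands. It was chosen after its values were seen, from 1525 heptamers found in at least 50 summit windows, so its share at the summits of these regions supports nothing. It was in 3.13% of the 3225 summit windows (2.58 to 3.79), 0.713% of flanks and 0.882% of genome windows. In regions that played no part in the choice it was in 2.67% of the other weaker regions at ranks 5209 to 10208 (2.08 to 3.42), and in 2.4% of optimal peaks (2.02 to 2.85) against 0.768% of their flanks. Of the recurrent regions at ranks 5209 to 10208, 3.28% held it. Outside promoters 3.59% of all recurrent regions held it, and in promoters 1.6%. Next in the same ranking were CACTGTA (2.11% against 0.667% of flanks) and ACTGTAC (1.61% against 0.558%), which overlap each other. The 4 strongest regions with the heptamer, chosen in the same way, show its place, in capitals, in the promoter of Elal, between genes near SIFaR, a neuropeptide receptor, in an intron of Nrt, a cell adhesion protein of neurons, and between genes near CG43354.
Elal, chr3R:24865113-24865213: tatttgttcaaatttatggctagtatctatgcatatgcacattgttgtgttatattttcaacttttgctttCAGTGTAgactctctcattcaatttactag
SIFaR, chr3R:21295228-21295328: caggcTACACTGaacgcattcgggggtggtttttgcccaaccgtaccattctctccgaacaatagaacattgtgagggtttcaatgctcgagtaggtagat
Nrt, chr3L:16768356-16768456: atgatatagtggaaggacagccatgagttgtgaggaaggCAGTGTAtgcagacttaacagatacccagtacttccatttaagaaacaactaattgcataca
CG43354, chr2L:18310638-18310738: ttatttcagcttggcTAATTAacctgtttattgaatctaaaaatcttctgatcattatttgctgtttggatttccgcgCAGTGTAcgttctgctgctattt
The word lay at different distances from the summit in these 4 windows, and that of CG43354 also held the homeodomain site TAATTA. Counted in bins of 50 bp, the heptamer occurred 17.1 times per 1000 recurrent weak regions at the summit, 15.2 and 14.3 times in the bins next to it, and 3.41 times at 450 bp on either side. In optimal peaks it occurred 10.4 times per 1000 at the summit, and 18.8 and 19.8 times 50 bp to either side. Optimal peaks thus had fewer in the summit bin than beside it. In the recurrent weak regions the summit bin was the highest by a small count (55, against 49 and 46 beside it), and the word had been picked for its share at these same summits, so that maximum is in part built in.

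**Figure D5:**
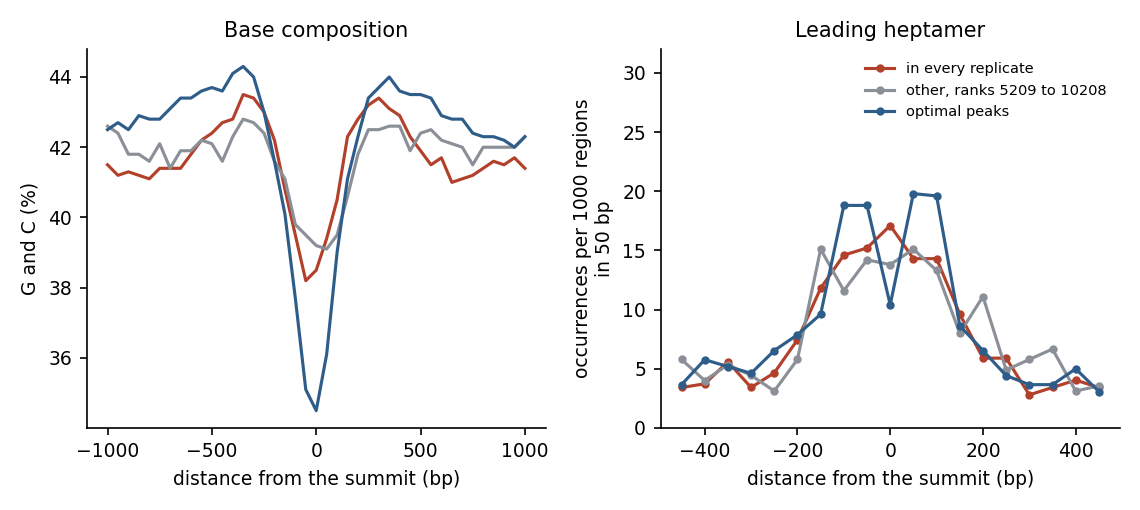
Share of G and C (left, percent in windows of 25 bp to each side) and occurrences of the leading heptamer per 1000 regions in bins of 50 bp (right), by distance from the summit. Lines show recurrent weak regions of all ranks, other weaker regions at pooled ranks 5209 to 10208 only, and optimal peaks. At the summit the recurrent regions stand at 38.5% G and C, between optimal peaks and the 39.2% of the other weaker regions, and have their highest heptamer count, 17.1.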

How the data were processed

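Region lists of 3 biological replicates, a pooled list and an optimal list on the dm6 build were used. According to the deposited inventories, the authors made the pooled list from all 3 alignments and 1 control, and then drew the optimal list from it and the replicate lists by irreproducible discovery rate. The aligner, caller and threshold were not given in the sources used here. Each deposited signal value is that of the authors' caller, with no stated normalization, and column 9 holds −log10 q as given by the authors. No read counts were used, so depth is unknown.

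Members and gene lists were chosen with earlier results of these data known. Regions were ranked by signal, and summits within 100 bp counted as matched. Genes came from Ensembl release 115 (13945 protein-coding genes on 6 arms), and sequence from the matching RefSeq assembly. Each summit took the first class that held it, from promoter through untranslated and coding exons to intron and intergenic, with 5' untranslated before coding and 3' untranslated after it. For 14 gene lists, promoter and inside counts are given beside those of all genes; 9 listed symbols had no match and were not analysed here. Named were the 20 regions of highest signal, the 10 with the best weakest rank, the 5 genes with most regions, up to 3 genes per list by signal, and up to 5 coding and small RNA regions each; further list genes are named where a list held few. Sequences were shown from arms other than 2R and outside untranslated regions. Shares carry 95% Wilson intervals. The 1 test was an exact sign-flip permutation over the replicates. Alternatives were other match distances, promoter and window widths, ranks and replicates left out. Scripts ran in Python 3.11.15 with pandas 2.3.3, numpy 2.4.6 and scipy 1.17.1, figures were drawn with matplotlib 3.10.9, and the rule was tested on simulated lists.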

Additional observations from a re-analysis of the deposited data

How the results depend on the processing

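The number of recurrent weak regions (3225) rested on the match distance and on the replicates asked for: it was 1561 at 50 bp, 5245 at 200 bp, 5278 to 6602 with 1 replicate left out, and 1198 with the strongest 15000 regions of each replicate. Leaving out any replicate moved it by over 1.5 times, to 5278 without replicate 1, 6602 without replicate 2 and 5695 without replicate 4. The promoter share of 23.2% was 20.7% to 25.8% with 1 replicate left out, 25.6% with the strongest 15000 regions of each replicate, 25.1% with regions that touch an optimal peak kept, and 16.9% and 32.2% with promoters of 250 and 1000 bp. The mean difference in promoter share (3.41 points) stayed above 0 under other match distances, promoter widths, rank limits and with touching regions kept, and was 1.01 to 4.89 with 1 replicate left out, and none of them could pass the exact test. It reversed to −2.5 with the other regions weighted to the same bands of replicate rank, added after seeing the data. With the same regions it was 7.07 over replicates 1 and 4, also added later, so replicate 2 moved it by over 1.5 times. The count of 870 genes with a promoter region was 1309 to 1594 with 1 replicate left out. It was 460 at a match distance of 50 bp, 1304 at 200 bp and 387 with the strongest 15000 regions of each replicate. The G and C difference of −3.59 was −2.53 to −1.68 with 1 replicate left out, and −3.72 and −3.26 in windows of 25 and 100 bp to each side. A region counted as not found in a replicate may have a summit there that lies more than 100 bp away. Depth is unknown, so it may also lack signal or lack reads.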

Other observations

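Regions found in all but 1 replicate resembled or differed from the recurrent weak regions by which replicate was missing. At pooled ranks 10209 to 15208 the 1046 regions found in replicates 1 and 4 only had 19.4% of summits in promoters, 28.5% between genes and 38.9% G and C. The 799 found in replicates 1 and 2 only had 28%, 20.4% and 42%, and the 651 found in replicates 2 and 4 only had 21.8%, 24.7% and 40.9%. The recurrent weak regions of those ranks, 814 in all, had 16.2%, 31.2% and 39.8%. The nearest start site was a median of 3237.5 bp from them, and 2992.5, 1828 and 2480 bp from the other sets in the order given.

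Starts of transposable elements lay within 250 bp of 32 recurrent weak regions (0.992%), 0.884% of the other weaker regions and 0.576% of optimal peaks. Starts of annotated noncoding RNA genes lay within 250 bp of 58 (1.8%), 1.88% of the other weaker regions and 2.15% of optimal peaks. Soft-masked bases, which mark repeats, made up 18.6% of the summit windows of recurrent weak regions, 16.5% of those of the other weaker regions and 21.4% of those of optimal peaks.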
